A study of Mus musculus with 9 samples.

Results

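The IFI200 family is a group of interferon-inducible proteins, also called PYHIN proteins, many of which bind double-stranded DNA. Members were taken as the genes *Ifi203*, *Ifi204*, *Ifi205*, *Ifi207*, *Ifi209*, *Ifi211*, *Ifi213*, *Mnda* and *Mndal*, and 8 of the 9 listed had a row among the 13708 genes of the table. *Mnda* had no row under that symbol. RefSeq lists *Mnda* as an older name of *Ifi211*, which was therefore counted once. Gene counts were compared between 2 genotypes of macrophages sorted from mouse livers at embryonic stage E15.5 as CD45+ F4/80hi CD11blow cells. The Mrc1Cre Xpr1fl/fl group (5 samples, below Mrc1Cre samples) carried floxed *Xpr1*, the gene of a phosphate exporter, together with a Cre recombinase inserted into *Mrc1*, the gene of the mannose receptor CD206. The Xpr1fl/fl group (4 samples, below controls) carried the same floxed alleles without the Cre. *Mrc1* is also expressed by sinusoidal endothelial cells of the liver, so the deletion was not limited to macrophages. The Cre strains were kept heterozygous on a C57BL/6JRj background, no treatment is given, and whether a sample came from 1 embryo or several is not stated, so that p-values measure the spread between these samples. As a check of the labels, *Xpr1* had 1073.7 to 1285.3 normalized counts in Mrc1Cre samples and 1780.9 to 2239.2 in controls. It fell by 0.77 on the log2 scale (SE 0.08, limma adjusted p = 4.13e-05), although transcripts without the floxed exon can still be counted. *Mrc1*, into which the Cre was inserted, fell by 1.72 (SE 0.12, limma adjusted p = 5.37e-06).

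Most family proteins combine an N-terminal pyrin domain, which binds other pyrin domains, with one or more C-terminal HIN domains, which bind DNA without regard to its sequence. *Aim2*, the best-known relative, joins DNA to the adaptor *Pycard* and Caspase-1 in the inflammasome. *Ifi204* (p204) is regarded as a mouse counterpart of human IFI16, which acts upstream of the adaptor *Sting1*. Fetal liver macrophages engulf the nuclei that erythroblasts expel, and so take up large amounts of DNA. The family is encoded in a single cluster that differs in gene number between mouse strains.

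All 8 members lay within 681 kb of chromosome 1 (GRCm39, chr1:173178445-173859456, the span of the PYHIN cluster). The table held 13 genes of this span, namely the 8 members, the 4 other PYHIN genes *Aim2*, *Ifi206*, *Ifi208* and *Ifi214*, and the pseudogene *Ifi203-ps*. Interferon-induced genes are often switched on through a promoter element in which GAAA, any 2 bases and GAAA follow each other. This element was searched on both strands in RefSeq promoter windows of 300 bases (250 before and 50 after the start, table build GRCm38.p6). Of the 7 members with a window, 6 held it, and so did 3 of the 5 other PYHIN genes, *Ifi202b* included. *Ifi204* had no window and was not searched. Across all 32851 windows the share was 3.44%, and 3.99% of the 27025 genes with a window held it. Shown here, to let the promoters of paralogs with different fold changes be compared, are 7 stretches that lie outside annotated genes, with the element or its nearest match in capitals and 15 bases on each side, 5′ to 3′ on the strand of the gene.
Ifi206: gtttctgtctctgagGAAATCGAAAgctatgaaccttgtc
Ifi213: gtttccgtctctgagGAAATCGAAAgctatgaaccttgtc
Ifi208: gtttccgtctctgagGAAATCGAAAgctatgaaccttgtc
Ifi214: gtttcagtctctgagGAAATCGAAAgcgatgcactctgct
Ifi209: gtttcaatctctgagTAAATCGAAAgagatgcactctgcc
Ifi207: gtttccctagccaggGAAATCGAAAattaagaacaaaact
Ifi211: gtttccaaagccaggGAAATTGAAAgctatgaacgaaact

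By exact match of the whole window, these stretches lie at chr1:173318900-173318939 (*Ifi206*), chr1:173426887-173426926 (*Ifi213*), chr1:173501158-173501197 (*Ifi208*), chr1:173363578-173363617 (*Ifi214*), chr1:173458331-173458370 (*Ifi209*), chr1:173569392-173569431 (*Ifi207*) and chr1:173740625-173740664 (*Ifi211*) of GRCm39. *Ifi208* and *Ifi209* are on the plus strand and the others on the minus strand. The matches of *Ifi203*, *Ifi205* and *Mndal* lay wholly or partly in annotated exons and are not shown. The 40 letters of *Ifi213* and *Ifi208* were the same. The core GAAATCGAAA was picked as the commonest full match among these PYHIN windows, so its frequency in them is no test. It stood in 16 of all windows (0.049%), among them those of 4 members (*Ifi203*, *Ifi207*, *Ifi213* and *Mndal*) and of 3 relatives. *Ifi211* and *Ifi205* held GAAATTGAAA instead. Among the members with a window, *Ifi209* was the one without a match, with 1 substitution from the element (G1T, counted from its 5′ end). A second interferon motif, TTCNNNGAA, was in 0 members' windows and in 8.3% of all windows. A match describes letters only, and factor binding was not measured.

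Every member was higher in Mrc1Cre samples. All 8 passed the test (limma on log2(normalized count + 1), Benjamini-Hochberg adjusted p below 0.05 over 13594 genes), against a background of 21.5% of all genes called higher. Each of the 8 also had every Mrc1Cre sample above every control, which was the case for 16.6% of genes. The log2 fold changes lay between 0.59 and 1.88 with a median of 0.88, and the median of all genes tested was 0.005. The date written in the column names was nearly confounded with genotype, since Mrc1Cre samples 1 to 4 bear the latest date, Mrc1Cre sample 5 and controls 1 to 3 the earliest, and control 4 one in between. With date as a term, 4 members (*Ifi213*, *Ifi209*, *Ifi207* and *Ifi205*) passed, where 4.24% of all genes were called higher, and the median was 0.67. Within the earliest date, Mrc1Cre sample 5 exceeded controls 1 to 3 for each member. What the dates record is not stated.

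**Figure D1:**
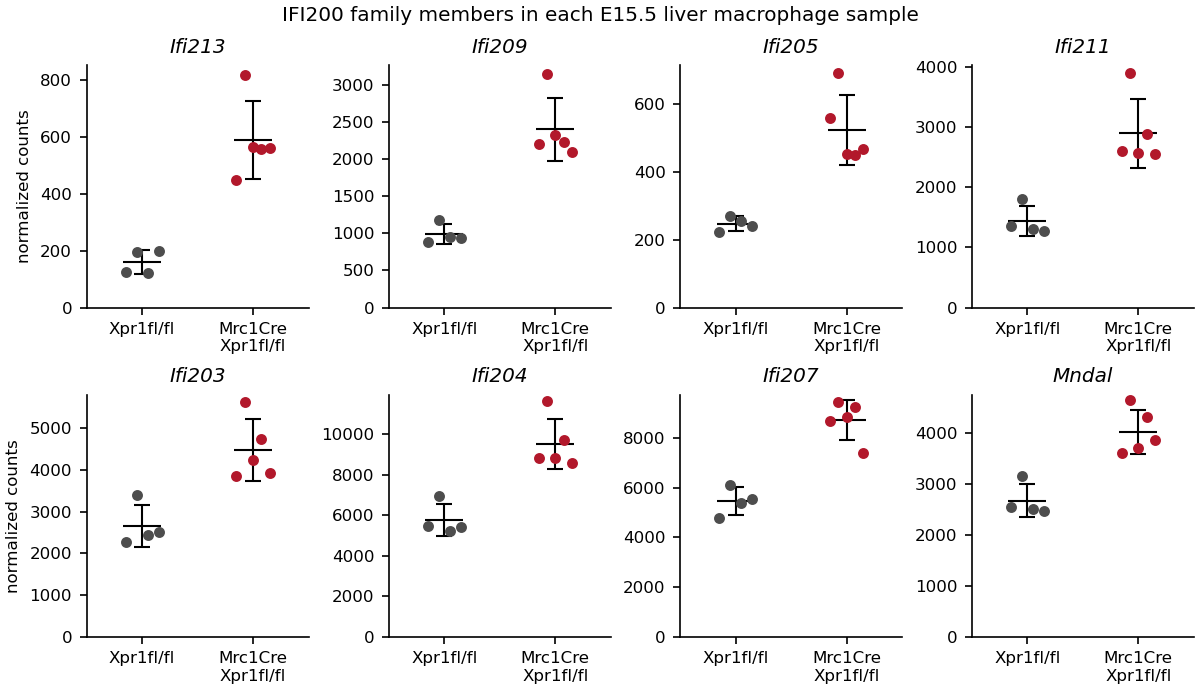
Normalized counts (y axes, from 0) of the 8 members in each of 4 Xpr1fl/fl (grey) and 5 Mrc1Cre Xpr1fl/fl (red) samples, with the mean (long bar) and SD. No panel has overlapping genotypes, and the highest red point is sample 2 in all 8.

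*Ifi213* changed most (ENSMUSG00000073491, chr1:173393846-173426881, minus strand). Mrc1Cre samples 1 to 5 had 447.7, 815.5, 563.9, 556.4 and 558.2 normalized counts. Controls 1 to 4 had 125.8, 195.6, 120.5 and 197.2. The lowest Mrc1Cre sample was thus well above the highest control. The means were 588.3 ± 135.9 (SD, n = 5) and 159.8 ± 42.3 (SD, n = 4), a fold of 3.69 (95% confidence interval 2.75 to 4.96). The log2 fold change was 1.88 (SE 0.19, limma adjusted p = 4.35e-05), and 77 genes of the table had a larger one. With date as a term it was 1.95 (limma adjusted p = 0.00874).

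*Ifi209* followed (ENSMUSG00000043263, chr1:173458380-173475494, plus strand, the only member on that strand). Its values were 2203.5, 3153.0, 2328.5, 2236.0 and 2098.4 in Mrc1Cre samples, and 882.4, 1181.6, 948.9 and 943.0 in controls. Sample 2 of each genotype was highest. The log2 fold change was 1.27 (SE 0.12, limma adjusted p = 2.67e-05) and 1.07 with date as a term (limma adjusted p = 0.0147).

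*Ifi205* encodes p205, a regulator of the inflammasome adaptor *Pycard* in macrophages (ENSMUSG00000054203, chr1:173839549-173859456, minus strand). Normalized counts were 560.5, 691.5, 451.8, 450.7 and 468.9 against 222.1, 270.8, 256.8 and 241.1. The controls were tightly grouped, with an SD of 20.9 around a mean of 247.7, whereas the Mrc1Cre mean of 524.7 had an SD of 103.7. The log2 fold change of 1.06 had an SE of 0.13 (limma adjusted p = 0.000122), and date as a term gave 0.91 (limma adjusted p = 0.043).

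*Ifi211* (ENSMUSG00000026536, chr1:173723911-173740612, minus strand) ranked next to *Ifi205* by fold. Its 5 Mrc1Cre values were 2597.7, 3890.9, 2568.6, 2884.9 and 2544.6. The 4 control values were 1362.9, 1805.3, 1298.9 and 1276.1. Again sample 2 of each genotype was highest, and no values overlapped. The fold was 2.01 (95% confidence interval 1.63 to 2.47), a log2 fold change of 1.01 (SE 0.14, limma adjusted p = 0.000205). Date as a term left 0.79 and the call was lost (limma adjusted p = 0.0659).

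*Ifi203* (ENSMUSG00000039997, chr1:173747971-173770436, minus strand) had 3850.6, 5632.8, 4237.2, 4747.8 and 3920.1 normalized counts in Mrc1Cre samples. Control values were 2263.9, 3394.5, 2439.7 and 2500.7. Control 2 came nearest to the other genotype, at 3394.5 against the lowest Mrc1Cre value of 3850.6. The log2 fold change was 0.76 (SE 0.13, limma adjusted p = 0.000971), the largest adjusted p of the 8 members. With date it was 0.56 (limma adjusted p = 0.16).

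*Ifi204*, the DNA sensor p204, was the most abundant member (ENSMUSG00000073489, chr1:173574859-173594610, minus strand). It reached 8840.7, 11617.0, 8842.5, 9707.6 and 8564.9 normalized counts in Mrc1Cre samples, from 5444.7, 6942.1, 5205.5 and 5429.0 in controls. All controls but control 2 lay within 5205.5 to 5444.7. The fold was 1.65 (95% confidence interval 1.41 to 1.94), with a log2 fold change of 0.73 (SE 0.10, limma adjusted p = 0.000274). With date the estimate was 0.56 (limma adjusted p = 0.0819).

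*Ifi207* (ENSMUSG00000073490, chr1:173550990-173569383, minus strand) lies next to *Ifi204*. Values of 8685.9, 9430.1, 8832.9, 9221.9 and 7400.2 in Mrc1Cre samples stood against 4769.7, 6115.3, 5399.1 and 5549.4 in controls. Sample 5 was the lowest of its genotype and still above all controls. The log2 fold change was 0.68 (SE 0.08, limma adjusted p = 0.000117) and 0.45 with date (limma adjusted p = 0.0442).

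*Mndal*, named for its likeness to the myeloid nuclear differentiation antigen, changed least (ENSMUSG00000090272, chr1:173676539-173708447, minus strand). Mrc1Cre samples had 3605.5, 4632.1, 3698.3, 4301.3 and 3845.4 normalized counts, and controls 2543.5, 3145.3, 2509.0 and 2472.4. Control 2 was the sole control above 2543.5. The fold was 1.51 (95% confidence interval 1.31 to 1.73), a log2 fold change of 0.59 (SE 0.09, limma adjusted p = 0.000469). With date it was 0.50 (limma adjusted p = 0.0841).

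Sample 2 of the Mrc1Cre group had the highest value of its genotype for 8 of 8 members, and control 2 for 7 of 8. Averaged over the members, they lay 0.34 and 0.27 above their genotype's mean on the log2 scale. Without both samples all 8 members still passed, with log2 fold changes between 0.62 and 1.87. Leaving out any single sample kept all 8, at 0.54 to 2.00.

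Levels of different genes were compared per kb of the longest coding transcript in GENCODE (release 39), since long transcripts yield more fragments. The order in controls was *Ifi204* (2377.2 ± 329.9 normalized counts per kb, SD, n = 4), *Ifi207* (1493.8 ± 151.4), *Mndal* (1239.6 ± 148.6), *Ifi211* (764.5 ± 132.6), *Ifi203* (521.3 ± 99.7), *Ifi209* (279.2 ± 37.2), *Ifi205* (140.5 ± 11.9) and *Ifi213* (37.7, with controls at 28.5 to 46.6). It was the same in Mrc1Cre samples, where *Ifi204* had 3930.0 ± 516.9 per kb and *Ifi213* 138.9 ± 32.1 (SD, n = 5). Each member was above the next one in all 9 samples. Across samples, however, ranges of neighbours overlapped: those of *Ifi207* and *Mndal* in controls (means 1.21-fold apart), and in Mrc1Cre samples those of *Ifi207* and *Mndal*, *Mndal* and *Ifi211*, and *Ifi203* and *Ifi209*. Using the mean length of coding transcripts gave the same order.

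**Figure D2:**
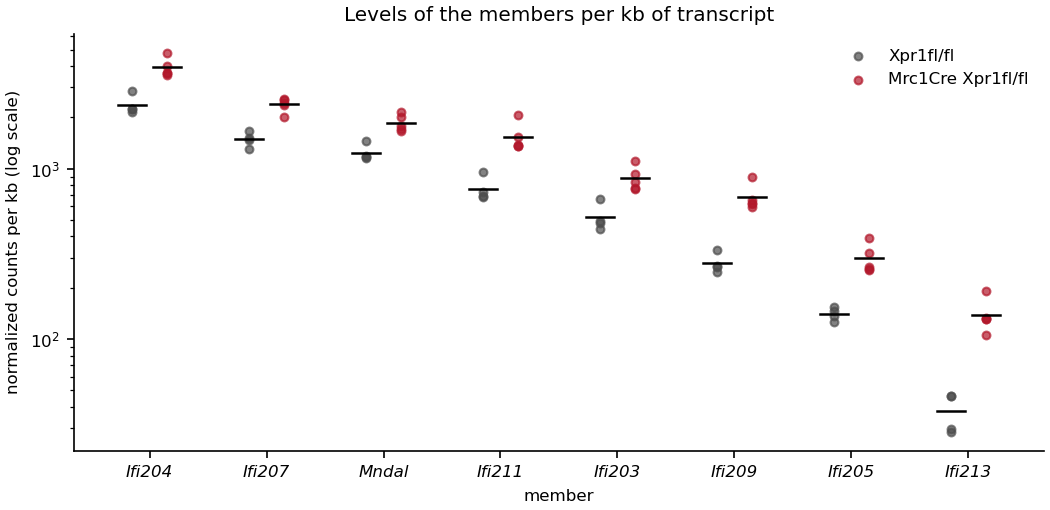
Normalized counts per kb of the longest coding transcript (y axis, log scale) of the 8 members in Xpr1fl/fl (grey) and Mrc1Cre Xpr1fl/fl (red) samples, with the group mean as a bar. The order from *Ifi204* to *Ifi213* is the same in both genotypes.

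Summed over the 8 members, normalized counts were 19363.2 ± 2491.6 in controls (SD, n = 4) and 33137.2 ± 4130.4 in Mrc1Cre samples (SD, n = 5), a ratio of 1.71. The lowest Mrc1Cre sum, 29400.8, exceeded the highest control sum, 23050.5. Shares of the summed level per kb were not tested. *Ifi204* made up 34.7% ± 0.908 (SD) of the sum of the 8 members in controls and 33.5% ± 0.308 in Mrc1Cre samples. *Ifi207* made up 21.9% ± 1.49 and 20.5% ± 1.63, and *Mndal* 18.1% ± 0.482 and 16.0% ± 0.835. *Ifi203* had 7.56% ± 0.462 and 7.49% ± 0.349. For *Ifi211* the shares were 11.1% ± 0.629 and 13.1% ± 0.873, for *Ifi209* 4.07% ± 0.0964 and 5.77% ± 0.379, for *Ifi205* 2.06% ± 0.166 and 2.53% ± 0.321, and for *Ifi213* 0.549% ± 0.122 and 1.18% ± 0.15. The 3 members with the lowest levels per kb (*Ifi213*, *Ifi205* and *Ifi209*) had the 3 largest fold changes, a description over 8 genes that share the same samples.

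Whether one paralog rose more than another was tested by comparing the log2 ratio of each of the 28 pairs between genotypes (two-sided exact permutation test over 126 regroupings of the samples, smallest possible p = 0.00794, Benjamini-Hochberg over 28 pairs). The fold differed in 20 pairs, and 13 pairs were at the smallest p. *Ifi213* exceeded each of the other 7 members, by 0.61 (SE 0.17) over *Ifi209* (exact permutation adjusted p = 0.0296) up to 1.29 (SE 0.19) over *Mndal* (adjusted p = 0.0171). *Ifi209* exceeded all remaining members but *Ifi205*, where the difference was 0.21 (SE 0.08, exact permutation adjusted p = 0.0635). *Ifi205* passed over *Ifi204*, *Ifi207* and *Mndal*, by 0.34 to 0.47, and its difference from *Ifi211* was 0.06 (SE 0.12, exact permutation adjusted p = 0.619). *Ifi211* exceeded *Ifi203* by 0.25 (SE 0.06, exact permutation adjusted p = 0.0171). Among *Ifi203*, *Ifi204*, *Ifi207* and *Mndal*, only *Ifi204* over *Mndal* passed, at 0.13 (SE 0.04, exact permutation adjusted p = 0.0392). Of the 7 neighbours in the order of fold changes, 2 differed, so most adjacent ranks were not separated by these samples. Without control 1, 2 or 3, the number of pairs fell to 13, but fewer regroupings are then possible. Before adjustment, 17, 19 and 19 pairs had a permutation p under 0.05 in these 3 settings. The permutation took no account of date. With date as a term, which leaves Mrc1Cre sample 5 against controls 1 to 3, the differences kept their sign in all 20 pairs, with no test.

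**Figure D3:**
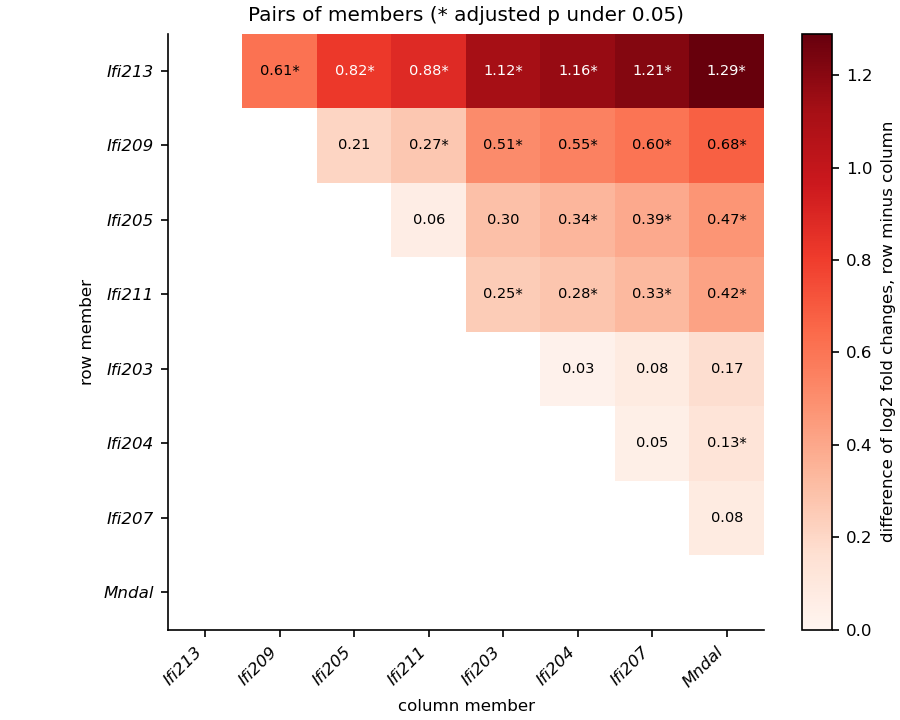
Difference of log2 fold changes for each pair of members, row minus column (colour and number). Stars mark the 20 of 28 pairs with an exact permutation adjusted p under 0.05, and the largest difference is 1.29 (*Ifi213* minus *Mndal*).

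Paralogs share sequence, which limits how well reads are assigned to each. Of the distinct 31-base words in the transcripts of *Ifi211*, 24.76% were found in no other gene, 46.55% were also in *Ifi205* and 37.19% in *Ifi204*. Values of *Ifi211* are therefore uncertain with respect to these genes. For *Ifi209* the share of its own words was 52.55%, with 47.07% shared with *Ifi214*. *Ifi214* itself had at most 85.7 normalized counts in any sample, beside at least 882.4 of *Ifi209*. Of the 31-base words of *Ifi214*, 21.07% were also in *Ifi209*, so its low values and their change are uncertain with respect to that gene. The other 6 members had between 65.78% (*Ifi204*) and 84.62% (*Ifi207*) words of their own. The library kit was stranded, but the strand setting of the counting is not stated.

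Among the other PYHIN genes, 3 of the 4 with a row passed in the same direction. *Ifi206* (ENSMUSG00000037849, chr1:173296051-173318873, minus strand) had 779.9, 1609.1, 980.8, 1007.5 and 858.4 normalized counts in Mrc1Cre samples and 240.0, 372.3, 174.7 and 215.9 in controls. Its log2 fold change of 2.07 (SE 0.23, limma adjusted p = 6.54e-05) was above that of every listed member. With date as a term it was 1.78, below the 1.95 of *Ifi213*, and the difference between this pair was not tested. *Ifi214* rose from 26.5 ± 7.5 (SD, n = 4) to 69.5 ± 16.2 (SD, n = 5), a log2 fold change of 1.37 (SE 0.26, limma adjusted p = 0.00153).

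*Aim2*, the inflammasome sensor, passed with a small change. It had 1329.3, 1374.3, 1420.8, 1613.5 and 1588.4 normalized counts against 1193.2, 1273.0, 1149.4 and 1184.2, a log2 fold change of 0.28 (SE 0.07, limma adjusted p = 0.00714). With date, *Aim2* (limma adjusted p = 0.0675) and *Ifi214* (limma adjusted p = 0.134) did not pass. *Ifi208* did not pass either (log2 fold change 1.92, SE 0.83, limma adjusted p = 0.0826). Its values were 234.4, 45.6, 306.5, 34.1 and 30.9 against 10.1, 11.9, 13.7 and 104.3, so control 4 was above 3 Mrc1Cre samples. Without control 4 it passed (limma adjusted p = 0.0156), and narrowly without Mrc1Cre sample 5 (0.0495) and under quantile normalization (0.0468). Leaving out any other single sample gave a limma adjusted p of 0.0664 to 0.199.

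**Figure D4:**
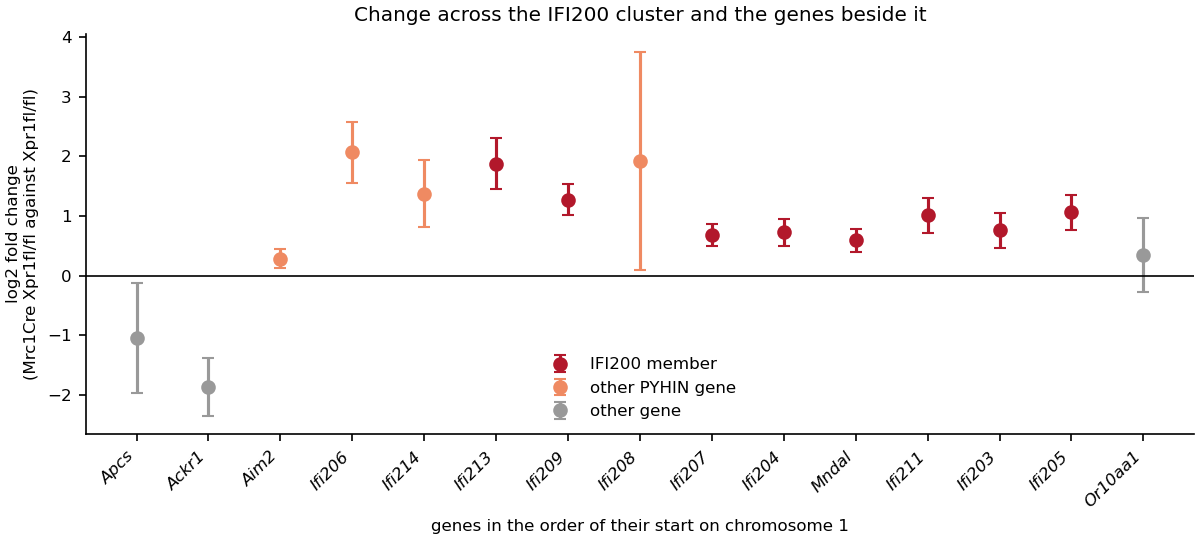
Log2 fold change (y axis, Mrc1Cre Xpr1fl/fl against Xpr1fl/fl, with 95% confidence interval) of the 8 members (red), the 4 other PYHIN genes (orange) and the tested ones among the nearest 2 genes on each side (grey), in chromosome order. All 12 PYHIN estimates are above 0, and of the flanking genes only *Or10aa1* is.

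None of the genes named beside the cluster was called higher. *Ackr1*, an atypical chemokine receptor of endothelial and erythroid cells and the nearest gene before it, fell by 1.87 on the log2 scale (SE 0.22, limma adjusted p = 9.45e-05). Farther out, the acute-phase genes *Crp* (−0.84, limma adjusted p = 0.0446) and *Apcs* (−1.04, limma adjusted p = 0.0662) had low counts, with at most 54.3 in a sample. The call on *Crp* was lost without any one Mrc1Cre sample and without control 2, 3 or 4 (limma adjusted p between 0.058 and 0.138), and with date (0.287). On the other side, the olfactory receptor *Or10aa1* did not pass (0.34, limma adjusted p = 0.353) and *Or6k2* was too low to test.

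Genes of the wider DNA-sensing pathway were called in both directions, the lower ones at close to the share of all genes. Of 26 tested, 11 rose, 6 fell and 9 did not pass, with a median log2 fold change of 0.16, beside 21.5% of all genes higher and 21.6% lower. *Cgas*, which makes the second messenger cGAMP on DNA, rose from 518.0, 719.2, 606.1 and 645.7 normalized counts in controls to 1043.1, 1249.4, 929.5, 1012.4 and 1072.9 (log2 fold change 0.77, SE 0.10, limma adjusted p = 0.000203). Its receptor *Sting1* had a log2 fold change of −0.06 (SE 0.11, limma adjusted p = 0.671) with overlapping samples. Downstream, the kinase gene *Ikbke* rose by 0.88 (SE 0.13, limma adjusted p = 0.000423) and the transcription factor *Irf7* by 1.49 (SE 0.15, limma adjusted p = 3.43e-05). *Irf3*, a factor that *Sting1* signalling activates, was lower by a small margin (−0.17, SE 0.05, limma adjusted p = 0.0288) and lost the call with date (limma adjusted p = 0.584) and without Mrc1Cre sample 1, 2 or 3 or control 1, 2 or 3 (0.0524 to 0.0679).

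*Zbp1*, a sensor of Z-form nucleic acids, rose by 1.59 (SE 0.21, limma adjusted p = 0.000197). Genes of nucleases that remove DNA did not pass. The cytosolic exonuclease gene *Trex1* had 0.16 (SE 0.11, limma adjusted p = 0.277), and *Dnase2a*, whose product degrades DNA in lysosomes, −0.13 (SE 0.07, limma adjusted p = 0.146). *Dnase2a* passed as lower under 75th percentile scaling (limma adjusted p = 0.0308), quantile normalization (0.0196) and without control 2 (0.0105). The largest falls were in *Xrcc5*, a subunit of the Ku DNA-end binding complex (−0.95, SE 0.13, limma adjusted p = 0.000179), in the RNase H2 subunit *Rnaseh2c* (−0.72, SE 0.17, limma adjusted p = 0.00648) and in *Xrcc6*, the other Ku subunit (−0.27, SE 0.07, limma adjusted p = 0.0091). With date as a term 5 genes of the list were higher and 1 lower, beside 4.24% and 4.54% of all genes, and *Cgas*, *Ikbke*, *Irf7* and *Zbp1* remained among the higher ones. *Xrcc6* and *Rnaseh2c* lost their calls (limma adjusted p = 0.112 and 0.854).

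Of 16 inflammasome genes, *Aim2* among them, 7 rose and 1 fell, beside 21.5% of all genes higher and 21.6% lower, with a median log2 fold change of 0.09. With date as a term the median was 0.12. Under 75th percentile scaling 5 of the 16 were lower, where 3706 of all 13594 genes were called lower. The adaptor *Pycard* rose by 0.26 (SE 0.08, limma adjusted p = 0.0158), *Casp1* by 0.49 (SE 0.05, limma adjusted p = 4.9e-05) and *Casp4*, the sensor of cytosolic lipopolysaccharide, by 0.50 (SE 0.08, limma adjusted p = 0.000622). The cytokine gene *Il1b* rose by 0.83 (SE 0.18, limma adjusted p = 0.00365) and the sensor *Mefv* by 1.04 (SE 0.14, limma adjusted p = 0.00017). *Txnip*, an interaction partner of *Nlrp3*, fell by 0.67 (SE 0.07, limma adjusted p = 6.08e-05). *Pycard* was not past the threshold under 75th percentile scaling (limma adjusted p = 0.0759) and with date (0.133), nor was *Il1b* with date (0.26).

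Outside the family, 5 genes had the profiles nearest to the members' mean over the 9 samples, by the root mean square difference of log2 values centred on the controls. They were *Ifit2* (0.083), *Parp14* (0.085), *Cmpk2* (0.093), *Ms4a6b* (0.098) and *Taf4b* (0.106). *Ifit2*, an interferon-induced protein with tetratricopeptide repeats, had 1366.5 ± 266.3 normalized counts in controls (SD, n = 4) and 2714.1 ± 467.6 in Mrc1Cre samples (SD, n = 5). *Parp14*, an ADP-ribosyltransferase, went from 5113.8 ± 579.3 to 10091.7 ± 1699.5. The same measure was 0.076 for *Ifi211*, the member nearest to the members' mean, and 0.688 for *Ifi213*, the farthest.

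Totals per sample were 26942921 to 28309443 normalized counts, and correlations between samples 0.947 to 0.986. The macrophage markers *Csf1r* and *Adgre1* (F4/80) were abundant in all samples, at 71872.1 to 91177.9 and 42249.8 to 52418.8 normalized counts. Of 13 macrophage genes, 1 rose and 6 fell, with sums of 320748.3 to 370400.6 in Mrc1Cre samples and 364933.9 to 462723.1 in controls. *Spic* rose (log2 fold change 0.24). Those that fell were *Vsig4* (−5.03), *Clec4f* (−2.04), *Cd5l* (−0.9), *C1qa* (−0.86), *Timd4* (−0.85) and *C1qc* (−0.41). Of 9 monocyte genes, 3 rose (*Plac8*, *Cx3cr1* and *Treml4*) and 4 fell, *Ly6c2* among them, with sums of 25409.2 to 31132.5 against 17440.4 to 20163.5. With date as a term 1 of them (*Treml4*) was higher and 2 were lower, and the macrophage list had 1 higher and 4 lower. Beside 21.6% of all genes called lower, the lists of other cells had as lower 13 of 13 erythroid, 9 of 9 hepatocyte, 8 of 9 endothelial, 5 of 10 granulocyte, 3 of 6 megakaryocyte and 3 of 5 lymphoid genes, with 1 lymphoid gene higher. With date, where 4.54% of all genes were lower, these became 4 erythroid, 2 hepatocyte, 0 endothelial (limma, with 6 lower at an unadjusted p under 0.05), 5 granulocyte, 1 megakaryocyte and 1 lymphoid gene lower, and the erythroid median went from −1.82 to −0.97. Erythroid sums were 91815.2 to 305901.7 in Mrc1Cre samples and 402007.5 to 644035.7 in controls. No listed gene with a row was at 0 in all samples. The part of these cell types in the members' change was not tested, and in bulk samples fewer cells of a type and less RNA per cell cannot be told apart.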

How the data were processed

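RNA from 5 Mrc1Cre Xpr1fl/fl and 4 Xpr1fl/fl samples (45 ng each) was sequenced paired-end, and the authors ran FastQC, quantified transcripts with salmon on a GRCm39 index, imported them with tximport and used DESeq2. Tool versions are not given in the sources used here. Each deposited value is a gene-level signal, a count that the authors had divided by the normalization factor of DESeq2. Low values were near whole multiples of 1 step (tolerance 0.05 step) for 26.0% to 49.7% of genes per sample, so whole reads were not recovered, no count test was run, and absolute depth is unknown. Totals reflect the normalization. Columns of no mapped sample numbered 0.

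A gene entered the test when 4 or more samples reached 10 normalized counts (13594 of 13708 genes). The fit used lmFit and eBayes (trend) from limma 3.58.1, under R 4.3.3, on log2(normalized count + 1), with Benjamini-Hochberg adjustment and a threshold of 0.05. Fold changes on this scale understate changes of low genes. Pairs of members were compared by exact permutation tests. Symbols and coordinates came from GENCODE release 39, promoters from RefSeq. Scripts were tested on simulated data. Figures were drawn with matplotlib 3.10.9.

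Replicate numbers did not pair the samples. Named were the members, the other PYHIN genes, *Xpr1*, *Mrc1*, 8 pathway genes and up to 3 largest changes in each direction of 2 lists, 3 flanking genes on each side (1 of them is not reported here), and the 5 nearest profiles. *Csf1r*, *Adgre1*, the macrophage genes that rose or fell, *Plac8*, *Cx3cr1*, *Treml4* and *Ly6c2* were named after their values were seen. The members and gene lists were chosen with earlier results of these data known. Alternatives were pseudocounts of 0.5 and 10, no filter, a minimum of 50, 75th percentile scaling, quantile normalization, limma without trend or robust, a replicate block, date as a term, 25-base words, and leaving out each sample. Leaving out both samples numbered 2 was added after seeing the data.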

Additional observations from a re-analysis of the deposited data

Results flagged for a closer look

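In 74 groups of 4 or 5 samples (37 named genes in 2 genotypes), 12 held a sample farther from the rest than Dixon's 95% limit. Chance flags about 1 in 20 groups, or 3.7. All groups come from the same 9 samples, so a sample high for many genes is flagged repeatedly and the comparison is no test. Mrc1Cre Xpr1fl/fl sample 2 was the high one for *Ifi209* (3153.0 normalized counts, others at most 2328.5), *Ifi211* (3890.9, others at most 2884.9), *Ifi206* (1609.1, others at most 1007.5), *Zbp1* (1554.6, others at most 1033.3) and *Trex1* (1403.5, others at most 1091.9). Xpr1fl/fl sample 2 was the high one for *Ifi204* (6942.1, others at most 5444.7), *Mndal* (3145.3, others at most 2543.5) and *Ifi211* (1805.3, others at most 1362.9). For these 3 genes the raised control narrowed the gap between genotypes, and all 3 passed the test with and without it. Mrc1Cre Xpr1fl/fl sample 2 was also the highest of its genotype for them, which widened the gap. Without both samples the log2 fold changes were 0.74 (*Ifi204*), 0.62 (*Mndal*) and 1.01 (*Ifi211*), against 0.73, 0.59 and 1.01 with all samples. *Ifi208* had 104.3 in Xpr1fl/fl sample 4, where the other controls had at most 13.7. Mrc1Cre Xpr1fl/fl sample 5 stood apart for *Rnaseh2c* (831.1, others at most 500.8) and for *Ackr1* (90.0, others at most 54.8). Sample 1 of that genotype stood apart for *Xrcc6* (942.1, others at most 848.3). Sample 5 was also the sole Mrc1Cre Xpr1fl/fl sample of its date. With date as a term the log2 fold change of *Rnaseh2c* was −0.05 (limma adjusted p = 0.854) and that of *Ackr1* −1.20 (limma adjusted p = 0.0402).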

How the results depend on the processing

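All 8 members stayed higher and past the threshold under every alternative but date as a term, where 4 did. Of 160 member results under alternatives, 156 kept their call and 4 lost it, all with date. With date, the DNA-sensing list had 5 genes higher and 1 lower, and the inflammasome list 3 higher. Inflammasome genes called lower numbered 5 under 75th percentile scaling, 4 under quantile normalization and 4 with the replicate block. In that order, these settings called 3706, 2557 and 3080 of all 13594 genes lower. Without both samples numbered 2 the list had 2 genes lower, and 1 to 3 when each sample was left out. Member pairs whose fold differed numbered 13 to 19 when each sample was left out, where fewer regroupings of the samples are possible. With 25-base words, 2 members had under 50% of their own words, against 1. Over the 716 results of named genes, 671 kept their call, 33 lost it, 9 gained one and 3 changed sign: *Sting1* was 0.00 without Xpr1fl/fl sample 2 (−0.17 to 0.00 when each sample was left out) and 0.00 without both samples numbered 2, and *Or10aa1* −0.12 with date. None of these 3 was past the threshold. The cause was not tested.

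Under 75th percentile scaling the share of calls that were higher was 35.0%, against 49.9%, over 1999 higher and 3706 lower genes, and the median of all genes moved to −0.074. With date, 577 genes were higher and 617 lower, against 2926 and 2939. Same-numbered samples did not deviate together (correlations of −0.033, 0.147, −0.011 and −0.031), and 2 of 8 samples correlated best with their own number. With the replicate number as a block, 3146 genes were higher and 3080 lower, and all 8 members passed. Depth is unknown, so low genes such as *Ifi214* carry counting error that could not be given.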
